A study of Rattus norvegicus with 26 samples.

Results

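The heat shock and unfolded protein response genes examined here are 42 named genes, chosen by symbol, that code for chaperones, folding enzymes and the regulators that control them. Of these, 41 had values in the dentate gyrus (DG) of rats and 40 had a mean of at least 5 normalized counts, out of 15595 genes that passed the same filter. Hspa1a was not analysed here, and Trib3, with a mean of 4.36, was below the filter and was not tested. The 42 genes comprised 14 cytosolic chaperones and co-chaperones (13 tested), 3 mitochondrial chaperones (3 tested), 13 genes for chaperones, folding enzymes and degradation in the endoplasmic reticulum (ER; 13 tested), 8 stress sensors and transcription factors (8 tested) and 4 targets of the integrated stress response (3 tested).

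Cells that accumulate unfolded proteins in the cytosol release the transcription factor HSF1, which switches on chaperones of the HSP70, HSP90 and small heat shock families. Unfolded proteins in the ER are sensed by the membrane proteins IRE1 (Ern1), PERK (Eif2ak3) and ATF6, which act through spliced XBP1, through ATF4 and CHOP (Ddit3), and through cleaved ATF6 to raise ER chaperones and folding enzymes. PERK and related kinases also slow translation in the integrated stress response, and GADD34 (Ppp1r15a) reverses that block.

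The samples were DG from 26 male Fischer 344 rats, an inbred strain, aged 6 months and kept on a reversed light cycle, with 1 library per rat from 1 hemisphere. The Veh group (n = 10) received vehicle and belonged to a study of brain aging. The Dox group (n = 8) received doxorubicin, an anthracycline used in chemotherapy, at 2 mg/kg by intraperitoneal injection once a week for 4 weeks. The Dox + ABT group (n = 8) received the same doxorubicin and, by gavage, 12 mg/kg of ABT-263, a senolytic inhibitor of Bcl-2 family proteins, on 5 consecutive days every other week. The tissue is bulk DG, so that fewer cells of a type and less RNA per cell cannot be told apart. Values are normalized counts, that is, read counts divided by a library factor, and differences are on the log2(normalized count + 1) scale.

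The libraries were divided into 2 kinds that the labels do not name, and this touches most of the results below. The leading principal component of deviations from the group means, computed without the genes of interest, carried 28.3% of the variance over 13484 genes. A 2-class split of its scores gave 16 libraries of a first kind (4 Veh, 5 Dox, 7 Dox + ABT), with scores from -48.3 to 0.311. The 10 of a second kind (6 Veh, 3 Dox, 1 Dox + ABT) had scores from 10.4 to 41.1. Such a split gives 2 classes for any values, and whether the libraries form classes or a gradient was not tested. Ribosomal protein genes took 0.891% ± 0.128 (SD, n = 16) of the first kind and 1.48% ± 0.208 (SD, n = 10) of the second, and estimated reads per library ran from 10130909 to 24320721. The kinds differed at p under 0.01 in 35.1% of all genes tested and in 19 of the 40 heat shock and unfolded protein response genes, 13 of them higher and 6 lower in the second kind. Most of the genes tested also set the split, so a high share of all genes was fixed in advance. These shares describe the split and test nothing. In addition, Dox rats 1 and 2, both of the first kind, stood apart from all other rats in many of these genes, as described below. Granule cell markers were present in every group, with median summed levels of 12324 (Veh), 10782 (Dox) and 10266 (Dox + ABT) normalized counts.

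In the comparison of all rats, few of the 40 genes passed the study's threshold of p under 0.01 (limma). Dox against Veh called 2 of 40 genes (5%), both lower in Dox: the ER co-chaperone Dnajc3 and the transcription factor Ddit3. In the same comparison 2.87% of all genes were called, and 1.85% of all genes were called lower. Dox + ABT against Veh called 1 gene higher, Hyou1, and 1 lower, Herpud1, beside 7.84% of all genes (3.89% higher and 3.95% lower), and Dox against Dox + ABT called 2 genes lower in Dox, Hyou1 and Pdia4, beside 4.03% of all genes and 1.71% lower. Of the 5 genes called, Dnajc3, Hyou1, Herpud1 and Pdia4 act in the ER. None of the 40 had an adjusted p under 0.05 in any comparison, and the smallest adjusted p were 0.312, 0.114 and 0.227 in the order above. At an unadjusted p under 0.05 there were 9, 9 and 10 genes, where all genes gave 10.2%, 22.5% and 12.7%. No gene of the 40 separated any pair of groups without overlap, which 0.0192%, 0% and 0.135% of all genes did. The comparisons share rats, since Veh enters the first and the second and Dox the first and the third.

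**Figure D1:**
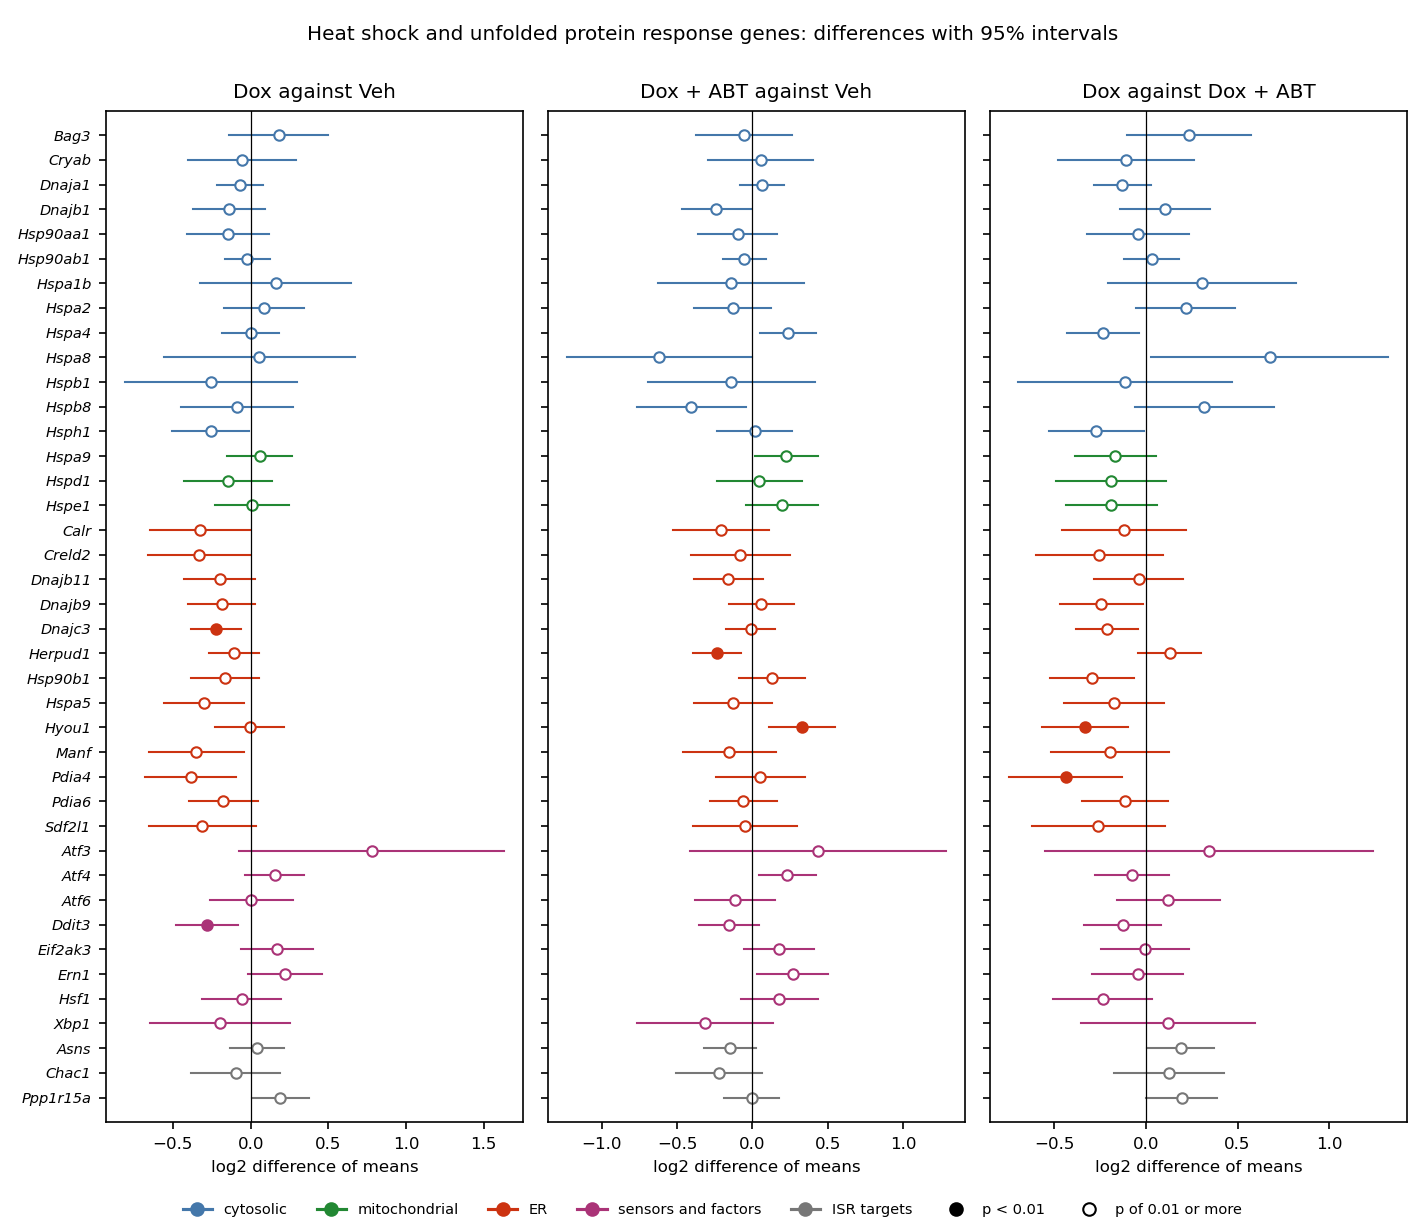
Difference of group means on the log2 scale (points) with 95% intervals (lines) for the 40 tested genes in the 3 comparisons, coloured by role; filled points have p under 0.01. In Dox against Veh all 13 ER genes lie at or left of 0, and the intervals of 6 of them exclude 0.

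In Dox against Veh the ER genes were the only role group whose tested genes all differed in 1 direction. All 13 had a lower mean in Dox than in Veh, with a median difference of -0.22 and a range from -0.38 to -0.0046, where 48.9% of all genes had a lower mean and the median of all genes was 0.00. Against Dox + ABT, 12 of 13 were lower in Dox with a median of -0.21, beside 50.2% of all genes. Both patterns rested in part on Dox rats 1 and 2, without which 12 of 13 ER genes were lower than in Veh with a median of -0.11, and 7 of 13 lower than in Dox + ABT with a median of -0.04. Among libraries of the second kind 6 of 13 were lower in Dox than in Veh, with a median of 0.01. In the first kind alone 12 of 13 were lower than in Veh (median -0.39), and with kind as a covariate 13 of 13 (median -0.18). Against Dox + ABT these were 12 of 13 (median -0.33) and 12 of 13 (median -0.28). Dox + ABT against Veh gave 9 of 13 lower with a median of -0.06, beside 50.1% of all genes, a direction that turned when kind was fitted as a covariate (2 of 13 lower, median 0.10) and in libraries of the first kind alone (6 of 13 lower, median 0.01). The genes are not independent of each other, and at p under 0.01 the test called 1 of 13 in Dox against Veh, 2 in Dox + ABT against Veh and 2 in Dox against Dox + ABT.

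Control elements of the unfolded protein response are written in the promoters of the ER genes themselves. RefSeq promoters of assembly GRCr8, running from 250 bases before to 50 bases after the annotated start, matched 33 of the 42 genes, 31 of them tested. Cryab, Manf, Hsp90aa1, Hsf1, Atf6, Pdia6, Hspa1b, Atf3 and Ern1 had no entry. The ER stress element, CCAAT and CCACG with 9 bases between them, is bound by ATF6 together with NF-Y. It was searched on both strands and was found in 5 of 11 ER gene promoters (Hspa5, Hsp90b1, Calr, Dnajc3 and Creld2) and in that of Xbp1, against 22 of 33469 promoters (0.0657%). The related element ERSE-II, ATTGG and CCACG with 1 base between them, was found in 3 of 11 (Hyou1, Herpud1 and Dnajb11), against 0.0508% of all promoters. The promoters of the ER genes that the results turn on are shown with these elements in capitals, on whichever strand they lie, each sequence reading 5′ to 3′ on the strand of the gene. Hspa5 lies at chr3:38452766-38453065 (+), Hsp90b1 at chr7:23012244-23012543 (-), Calr at chr19:40213117-40213416 (+), Dnajc3 at chr15:102432417-102432716 (+), Hyou1 at chr8:53602632-53602931 (+) and Herpud1 at chr19:10614658-10614957 (-).
Hspa5: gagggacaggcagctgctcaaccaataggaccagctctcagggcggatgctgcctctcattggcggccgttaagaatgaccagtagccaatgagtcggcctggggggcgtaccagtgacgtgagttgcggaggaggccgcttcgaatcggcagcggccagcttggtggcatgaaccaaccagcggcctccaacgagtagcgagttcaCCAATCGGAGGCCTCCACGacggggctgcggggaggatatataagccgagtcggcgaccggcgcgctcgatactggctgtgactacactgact
Hsp90b1: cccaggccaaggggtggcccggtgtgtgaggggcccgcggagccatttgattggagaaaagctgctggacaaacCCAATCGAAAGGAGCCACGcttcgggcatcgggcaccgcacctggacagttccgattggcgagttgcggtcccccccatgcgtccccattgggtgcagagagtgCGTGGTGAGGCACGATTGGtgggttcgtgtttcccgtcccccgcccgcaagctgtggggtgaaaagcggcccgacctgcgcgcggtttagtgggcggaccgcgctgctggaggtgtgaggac
Calr: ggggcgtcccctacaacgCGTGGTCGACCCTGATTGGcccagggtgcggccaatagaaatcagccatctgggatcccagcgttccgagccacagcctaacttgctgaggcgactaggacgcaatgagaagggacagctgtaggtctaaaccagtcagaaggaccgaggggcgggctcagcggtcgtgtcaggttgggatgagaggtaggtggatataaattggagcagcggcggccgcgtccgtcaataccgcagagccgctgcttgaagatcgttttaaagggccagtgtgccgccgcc
Dnajc3: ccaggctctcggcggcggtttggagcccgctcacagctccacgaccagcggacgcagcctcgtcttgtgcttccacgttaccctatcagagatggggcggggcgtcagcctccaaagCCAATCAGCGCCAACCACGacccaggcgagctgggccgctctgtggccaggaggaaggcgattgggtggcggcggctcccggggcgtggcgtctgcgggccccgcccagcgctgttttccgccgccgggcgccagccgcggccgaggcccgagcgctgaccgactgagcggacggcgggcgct
Hyou1: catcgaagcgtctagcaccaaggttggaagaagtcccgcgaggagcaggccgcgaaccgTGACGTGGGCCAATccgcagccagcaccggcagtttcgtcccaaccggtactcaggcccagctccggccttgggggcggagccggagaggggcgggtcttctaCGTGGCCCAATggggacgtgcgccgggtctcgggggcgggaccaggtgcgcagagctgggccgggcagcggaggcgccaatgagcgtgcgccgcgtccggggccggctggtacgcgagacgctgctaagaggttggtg
Herpud1: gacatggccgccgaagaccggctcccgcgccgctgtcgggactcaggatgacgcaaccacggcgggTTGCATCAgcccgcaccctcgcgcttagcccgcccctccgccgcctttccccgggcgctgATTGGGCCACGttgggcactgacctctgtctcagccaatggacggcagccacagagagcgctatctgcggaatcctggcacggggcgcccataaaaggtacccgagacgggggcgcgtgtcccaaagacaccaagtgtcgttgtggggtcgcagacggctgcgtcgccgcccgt
In Hspa5 the element spans -43 to -25 and in Dnajc3 -133 to -115, counted from an annotated start of 0. Hsp90b1 holds it on both strands, at -176 to -158 and at -72 to -54, and Calr holds it on the reverse strand at -232 to -214. In Hyou1 the capitals mark ERSE-II on the reverse strand at -188 to -178 and -88 to -78, and the former overlaps TGACGTGG, the unfolded protein response element, which 0.595% of promoters hold. In Herpud1 the capitals also mark TTGCATCA, an amino acid response element of the kind bound by ATF4, at -184 to -177, which 0.795% of promoters hold. A second annotated start of Hyou1 and the promoters of Pdia4, Dnajb9 and Sdf2l1 held none of the letters searched. These matches describe the sequences and were not tested against the expression values.

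Hspa5, which codes for BiP, the HSP70 of the ER and the protein that holds the sensors inactive, ranged from 4777 to 6839 normalized counts in Veh with a median of 5571. In Dox it ranged from 2906 to 6813 with a median of 4417, and in Dox + ABT from 4796 to 6005 with a median of 5070. The 5 lowest rats of all were Dox rats of the first kind, while the 3 Dox rats of the second kind lay in the upper part of the Veh range. Mean levels were 5658 ± 636 for Veh (SD, n = 10), 4769 ± 1476 for Dox (SD, n = 8) and 5156 ± 367 for Dox + ABT (SD, n = 8). The difference of Dox from Veh was -0.30 ± 0.13 (SE; p = 0.0242, adjusted p = 0.436).

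Hsp90b1, the HSP90 of the ER, ranged from 3217 to 4196 in Veh (median 3619), from 2201 to 4443 in Dox (median 3282) and from 3465 to 4439 in Dox + ABT (median 4114). Calr, a lectin chaperone that also stores calcium, ranged from 5738 to 9355 in Veh (median 8808), from 4128 to 10207 in Dox (median 5631) and from 5981 to 9376 in Dox + ABT (median 6845). Manf, a secreted ER stress protein, ranged from 552 to 980 in Veh (median 808), from 365 to 1005 in Dox (median 578) and from 582 to 852 in Dox + ABT (median 730). In each of these genes the Dox rats reached both below and above the range of the Veh rats. The differences between Dox and Veh were -0.17 ± 0.11 for Hsp90b1 (p = 0.128), -0.33 ± 0.16 for Calr (p = 0.0469) and -0.35 ± 0.15 for Manf (p = 0.0269), and none passed the threshold. For Creld2, a folding factor of the ER, the difference was -0.33 ± 0.16 (p = 0.0462).

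Dnajc3, also called P58IPK, a co-chaperone of BiP that restrains PERK, ranged from 223 to 292 normalized counts in Veh (median 244), from 185 to 248 in Dox (median 212) and from 226 to 288 in Dox + ABT (median 244). The groups overlapped, and 7 of 8 Dox rats lay below the Veh median and 7 of 8 below the Dox + ABT median. Dnajc3 fell in Dox against Veh by 0.22 ± 0.08 (p = 0.00773, adjusted p = 0.318; two-sided exact permutation test over rats, p = 0.00457). Against Dox + ABT the difference was -0.21 ± 0.08 (p = 0.016, adjusted p = 0.28). The Dnajc3 call was lost without any of Veh rats 5, 6, 10 and 11 or Dox rats 1, 2, 9, 13 and 14, and the difference stayed between -0.25 and -0.20 over all 26 single-rat omissions.

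Pdia4, a protein disulphide isomerase, ranged from 385 to 526 in Veh (median 470), from 189 to 510 in Dox (median 411) and from 399 to 556 in Dox + ABT (median 471). Dox rats 1 and 2, at 189 and 212, were far below the next Dox rat at 385. Pdia4 was lower in Dox than in Dox + ABT by -0.44 ± 0.15 (p = 0.00703, adjusted p = 0.229; two-sided exact permutation test, p = 0.0169), and the difference from Veh was -0.38 ± 0.14 (p = 0.0118). The call was lost without either of those Dox rats or without Dox + ABT rat 1, 3, 4 or 6 (-0.51 to -0.31 over all omissions). Without both Dox rats the differences were -0.16 (p = 0.0789) and -0.11 (p = 0.207).

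Hyou1, an ER chaperone of the HSP110 family that serves as an exchange factor for BiP, had a different order of groups. It ranged from 1230 to 2152 in Veh (median 1846), from 1355 to 2144 in Dox (median 1612) and from 1979 to 2249 in Dox + ABT (median 2164). All 8 Dox + ABT rats were above the Veh median, and all 8 Dox rats were below the Dox + ABT median. Hyou1 was higher in Dox + ABT than in Veh by 0.33 ± 0.11 (p = 0.00512, adjusted p = 0.114; exact permutation p = 0.00692) and lower in Dox than in Dox + ABT by -0.33 ± 0.11 (p = 0.00681, adjusted p = 0.227; exact permutation p = 0.00233). The Hyou1 difference of Dox from Veh did not pass the test (p = 0.966), with a 95% interval from -0.23 to 0.22. Hyou1 was also lower in the second kind of library by -0.36 (limma, p = 2.77e-05). That kind holds 6 of 10 Veh libraries but 1 of 8 Dox + ABT libraries. Kind and group are thus partly confounded, and the part of each was not tested. Among libraries of the first kind the Hyou1 difference between Dox + ABT and Veh was 0.07 ± 0.08 (p = 0.381), while that between Dox and Dox + ABT was -0.22 ± 0.08 (p = 0.0087). The call against Veh was lost without Veh rat 1, 2, 9 or 12 (0.28 to 0.36 over all omissions), and that against Dox without Dox rat 1, 2, 5, 7 or 14 or Dox + ABT rat 1, 2, 3, 5 or 12 (-0.38 to -0.29).

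Herpud1, a membrane protein of ER-associated degradation and a target of both ATF6 and ATF4, ranged from 764 to 1075 in Veh (median 943), from 763 to 1002 in Dox (median 815) and from 685 to 911 in Dox + ABT (median 748). All 8 Dox + ABT rats were below the Veh median, with overlap between the groups. Herpud1 fell in Dox + ABT against Veh by 0.24 ± 0.08 (p = 0.00607, adjusted p = 0.116; exact permutation p = 0.00692). The call was lost without Veh rat 1, 2, 3, 4 or 9 or Dox + ABT rat 3, 5, 6, 11 or 12 (-0.27 to -0.21 over all omissions). Among libraries of the first kind the difference was -0.13 ± 0.09 (p = 0.174). Dox rats 1 and 2, the lowest rats for Hspa5 and Pdia4, were the 2 highest Dox rats for Herpud1, at 995 and 1002.

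**Figure D2:**
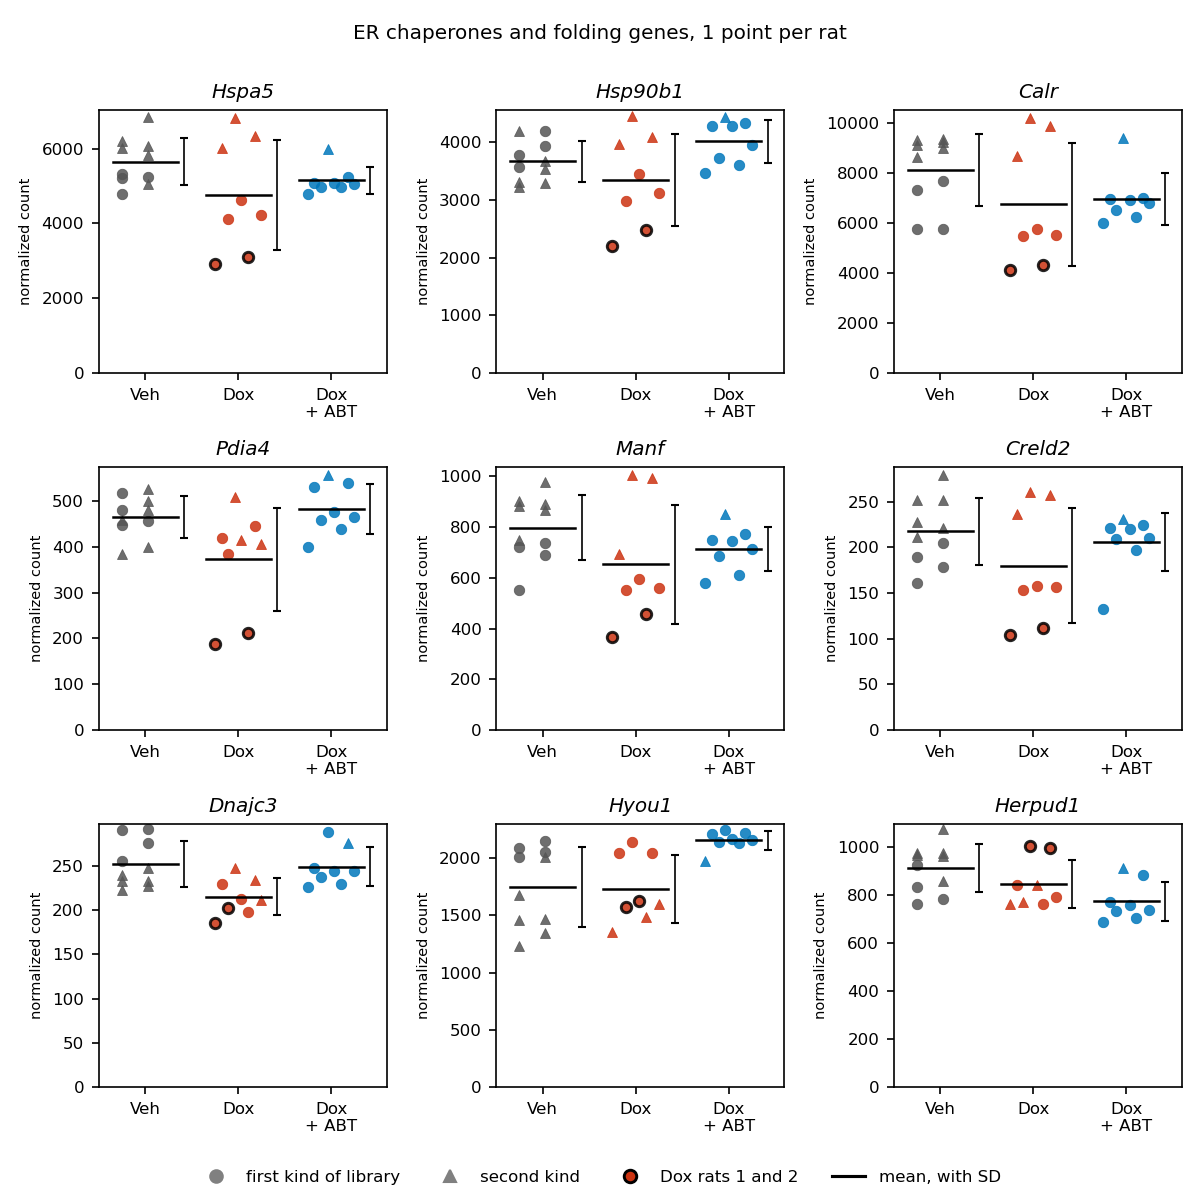
Normalized counts of 9 ER genes, 1 point per rat, with the mean (line) and SD (bar) of each group; circles are libraries of the first kind, triangles of the second, and Dox rats 1 and 2 are outlined. Both outlined rats lie below every other rat for Hspa5, Hsp90b1, Calr, Pdia4, Manf and Creld2, but not for Dnajc3, Hyou1 and Herpud1.

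Dox rats 1 and 2 were singled out after the values had been seen, so what follows describes them and tests nothing. Both lay below all 24 other rats in 11 of the 40 genes (27.5%), where 4.71% of all genes showed this. Of these, 8 were ER genes (8 of 13, 61.5%): Hspa5, Hsp90b1, Calr, Creld2, Manf, Pdia4, Pdia6 and Sdf2l1. The other 3 were Xbp1, the mitochondrial chaperonin Hspd1 and the cytosolic Hsph1. Both rats lay above all others in 4 of 40 genes (10%, beside 6.43% of all genes): Atf3, Eif2ak3, Hspa2 and Ppp1r15a. Their levels were 3099 and 2906 for Hspa5, 2484 and 2201 for Hsp90b1, 365 and 456 for Manf, and 112 and 104 for Creld2, in the order rat 1, rat 2. The same 2 rats were the highest of all for Cirbp and Rbm3, RNA-binding proteins that are induced when temperature falls, and these values moved with the heat shock genes but their part was not tested. Cirbp stood at 841 and 844 normalized counts against at most 477 in any other rat, and Rbm3 at 2506 and 2625 against at most 1476.

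**Figure D3:**
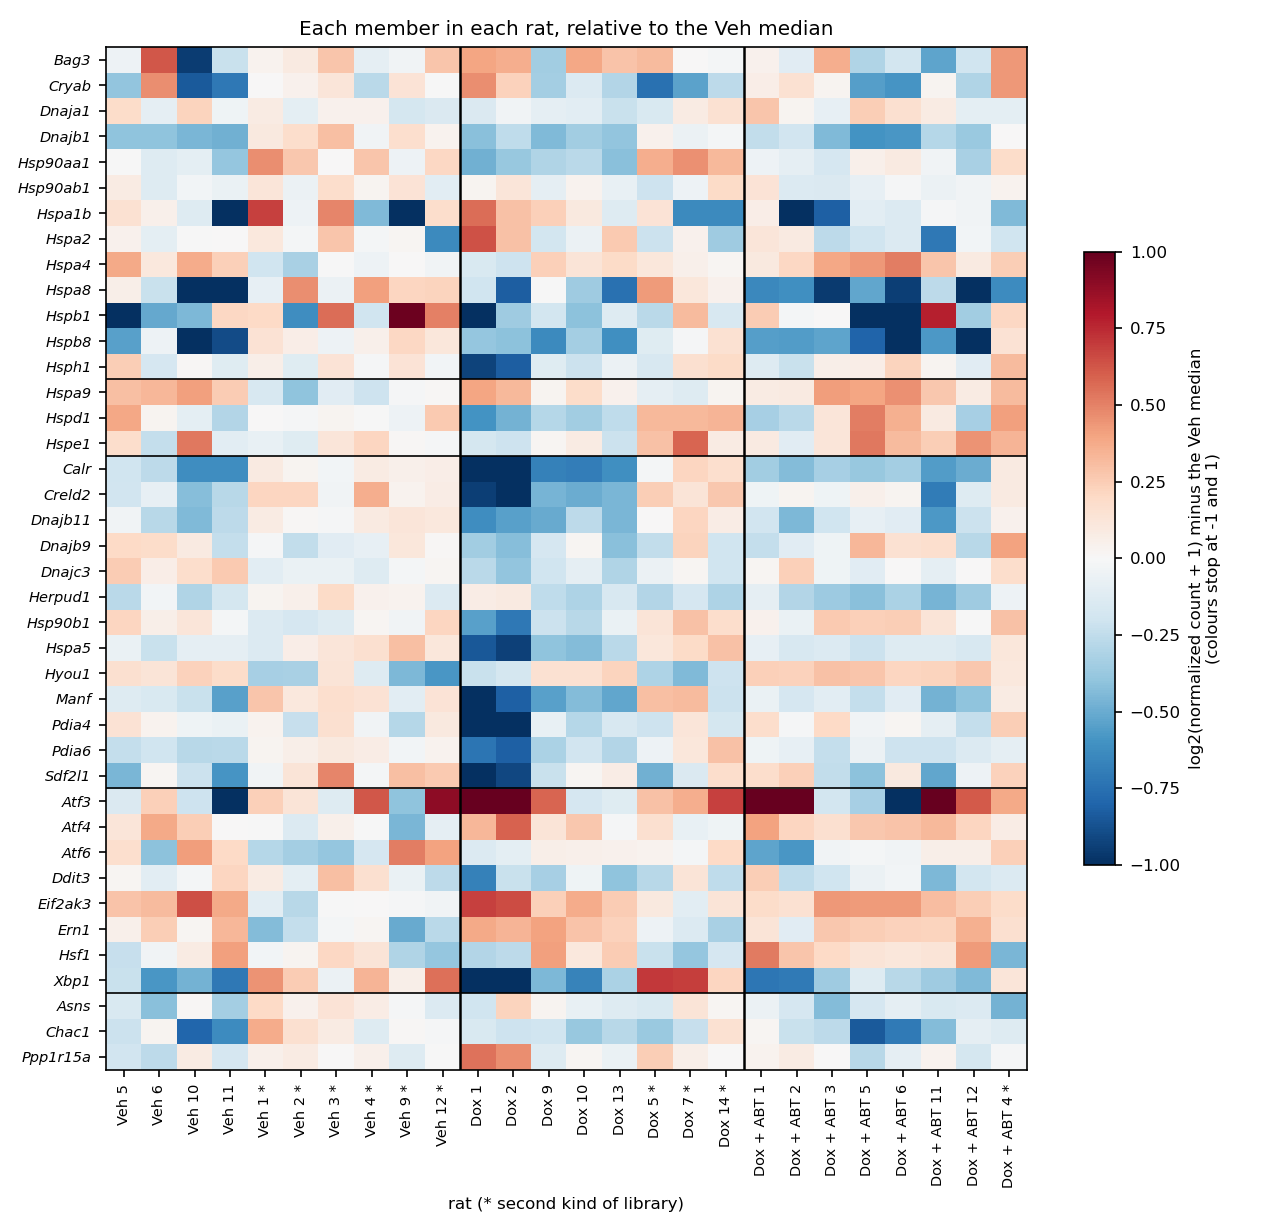
Log2(normalized count + 1) minus the Veh median for each tested gene (rows, by role) and each rat (columns, by group, with second-kind libraries starred); colours stop at -1 and 1. Most ER genes are dark blue (lower) in Dox rats 1 and 2 and paler blue in Dox rats 9, 10 and 13, while Herpud1, Hyou1 and Dnajc3 show no such dark cells in those 2 rats.

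Without Dox rats 1 and 2, an alternative added after seeing the data, no gene of the 40 was called in Dox against Veh or in Dox against Dox + ABT (limma; 3 and 3 genes at an unadjusted p under 0.05; 1.16% and 2.97% of all genes called, and 4.89% and 11.8% at an unadjusted p under 0.05). In Dox + ABT against Veh, whose rats are unchanged, Hyou1 (p = 0.00649) and Herpud1 (p = 0.00316) were still the genes called, beside 8.3% of all genes. Hspa5 gave -0.10 (p = 0.337) and Hsp90b1 gave -0.01 (p = 0.939) against Veh. The differences of Dnajc3 and Ddit3 were -0.18 (p = 0.043) and -0.22 (p = 0.037), nearer to their values with all rats. Hyou1 differed between Dox and Dox + ABT by -0.30 (p = 0.0248), also near its value with all rats.

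**Figure D4:**
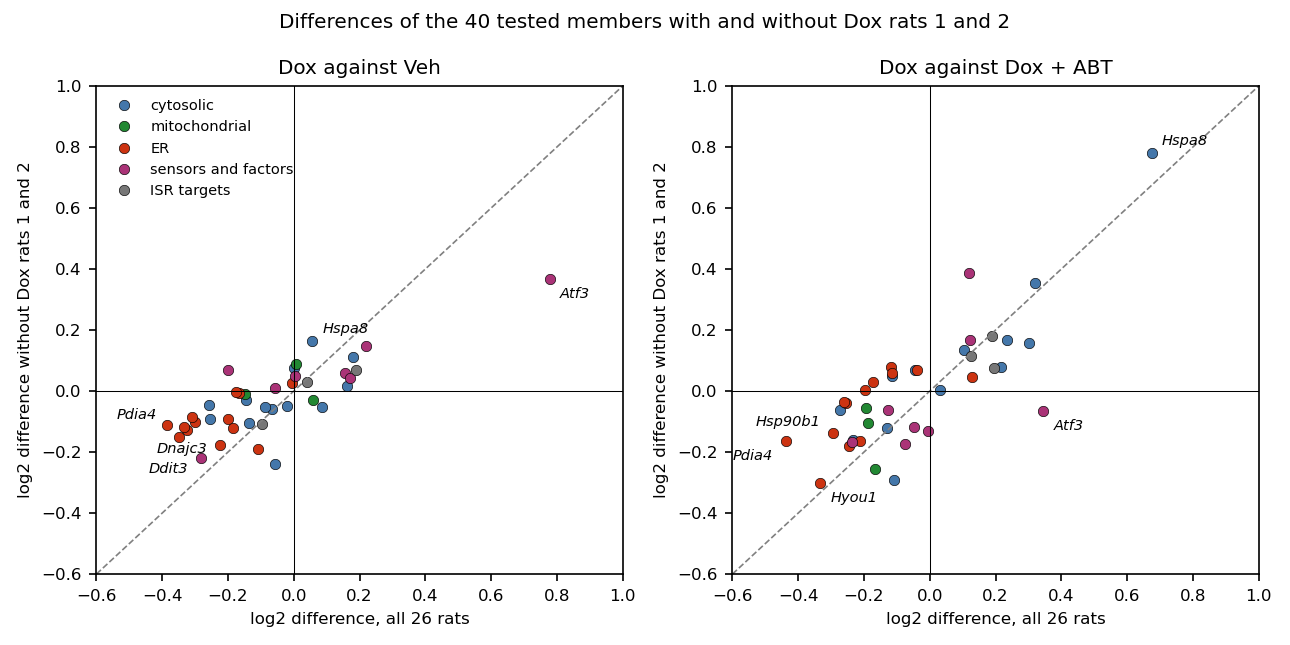
Log2 difference of each of the 40 genes with all 26 rats (horizontal) and without Dox rats 1 and 2 (vertical), for Dox against Veh and Dox against Dox + ABT, coloured by role; the dashed line marks equal values. The ER genes shift toward 0 without these rats, with Pdia4 moving from -0.38 to -0.11 and from -0.44 to -0.16, whereas Dnajc3 and Ddit3 in the left panel and Hyou1 in the right panel lie nearer to the dashed line.

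More ER genes were called in libraries of the first kind alone (4 Veh, 5 Dox and 7 Dox + ABT rats). Dox against Veh called 6 of 40 genes, all of them lower ER genes (Hspa5, Hsp90b1, Calr, Manf, Pdia4 and Dnajc3), beside 4.76% of all genes and 2.33% lower. Dox against Dox + ABT called 12 genes, all lower in Dox, beside 8.21% of all genes and 3.6% lower. They were 9 ER genes (the same 6 with Creld2, Hyou1 and Pdia6) and the chaperones Hsp90aa1, Hsph1 and Hspd1. Dox + ABT against Veh called none of the 40 (limma; 0 at an unadjusted p under 0.05; 1.1% and 5.86% of all genes). In Dox against Dox + ABT 4 genes had an adjusted p under 0.05, where 1.5% of all genes had: Hsp90b1 (-0.49 ± 0.10, adjusted p = 0.0322), Hspa5 (-0.43 ± 0.10, adjusted p = 0.0412), Calr (-0.41 ± 0.10, adjusted p = 0.0454) and Manf (-0.47 ± 0.12, adjusted p = 0.0499). None of the ER genes had an adjusted p under 0.05 when Dox rat 1 or 2 or Dox + ABT rat 3, 5 or 6 was left out, and 1 did without Veh rat 5 or 10, Dox rat 10 or Dox + ABT rat 2 or 11. Markers of other cell types moved in the same libraries, with 6 of 40 called in Dox against Veh and 8 of 40 in Dox against Dox + ABT, all of them lower in Dox, and their part in these values was not tested. Among the 8 were Aqp4 and Gfap (astrocytes), Dcn and Lum (meninges), Slco1a4 (endothelial cells; -1.36, adjusted p = 0.032), Aif1 (microglia) and Myh11 (mural cells). The other markers of most of these types did not all go that way. With all rats, 1 of 5 astrocyte and 2 of 4 endothelial markers were higher in Dox than in Dox + ABT. So were 2 of 5 microglia, 2 of 5 mural and 0 of 3 meningeal markers.

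The levels behind these calls did not overlap for some genes. Hspa5 ranged from 4777 to 5312 in first-kind Veh, from 2906 to 4615 in Dox and from 4796 to 5256 in Dox + ABT. Hsp90b1 ranged from 3568 to 4196, from 2201 to 3449 and from 3465 to 4333 in the same order. For both genes every first-kind Dox rat lay below every first-kind rat of the other groups. In Dox against Veh the groups of the first kind did not overlap in Hspa5, Hsp90b1, Pdia4, Dnajc3 and Creld2, which 5.49% of all genes did, and in Dox against Dox + ABT they did not overlap in Hspa5, Hsp90b1 and Calr, beside 2.24% of all genes.

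These calls also depended on single rats. Leaving out each first-kind library in turn, a choice made after seeing the data, the number of ER genes called ran from 3 to 7 in Dox against Veh, with 3 when Veh rat 5 or Veh rat 6 was left out (3.04% and 4.26% of all genes), and from 5 to 10 in Dox against Dox + ABT, with 5 when Dox rat 1 or Dox rat 2 was left out (6.52% and 4.8% of all genes). Over these omissions the share of all genes called also moved, from 2.15% to 5.59% and from 4.8% to 10.2%. Without both of these Dox rats 2 ER genes were called in each comparison (1.72% and 4.69% of all genes), and 11 of 13 were lower in each with medians of -0.23 and -0.19.

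Libraries of the second kind held 6 Veh and 3 Dox rats and only 1 Dox + ABT rat. There Hspa5 ranged from 5069 to 6839 in Veh and from 6024 to 6813 in Dox. The test called 3 of 40 genes beside 3.57% of all genes (1.67% higher and 1.89% lower). Cryab, a small heat shock protein, was lower in Dox (-0.52 ± 0.12, p = 0.00113), as was Herpud1 (-0.29 ± 0.09, p = 0.00936), and Hspd1 was higher (0.29 ± 0.09, p = 0.00795). An interaction of treatment and kind, added after seeing the data, tested whether the Dox difference depended on the kind, and 5 of 40 genes (12.5%) passed p under 0.01 beside 7.16% of all genes. The differences in the second minus the first kind were 0.70 for Hsp90b1 (p = 0.000434), 0.69 for Hspd1 (p = 0.000412), 0.55 for Hspa5 (p = 0.00493), 0.42 for Dnajc3 (p = 0.00768) and -0.87 for Cryab (p = 0.00878). What distinguishes the kinds of library was not tested, and rats 1 and 2 of the Dox group are both in the first.

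The kind of library itself moved with the level of many of these genes. Between kinds, 8 of 13 ER genes differed (61.5%, beside 35.1% of all genes), 7 higher and 1 lower in the second kind. The share of all genes follows in part from the split, which was drawn from most of them. Calr was higher in the second kind by 0.65 (p = 4.27e-09), Manf by 0.53 (p = 5.79e-06) and Hspa5 by 0.43 (p = 2.07e-05). Xbp1, whose spliced messenger RNA codes for the transcription factor downstream of IRE1, was higher by 0.90 (p = 1.03e-08). Among the sensors, Eif2ak3 and Ern1 went the other way, with Eif2ak3 at -0.39 (p = 1.1e-05) and Ern1 at -0.37 (p = 7.05e-05). With kind as a covariate the test called 1 gene in Dox against Veh (Dnajc3, -0.23, p = 0.00689; 2.7% of all genes), none in Dox + ABT against Veh (limma; 2 at an unadjusted p under 0.05; 1.37% and 7.37% of all genes) and 8 in Dox against Dox + ABT (4.76% of all genes), of which 7 were ER genes and the other was Hsph1.

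Among the 13 tested cytosolic chaperones none passed p under 0.01 in any comparison (limma; 1, 4 and 3 at an unadjusted p under 0.05). The median differences were -0.06 in Dox against Veh, -0.10 in Dox + ABT against Veh and 0.03 in Dox against Dox + ABT. Hspa1b, the stress-inducible HSP70 and a textbook readout of HSF1 activity, ranged from 67.3 to 292 normalized counts in Veh (median 182), from 117 to 269 in Dox (median 197) and from 88.3 to 191 in Dox + ABT (median 167). The groups overlapped throughout, and the difference of Dox from Veh was 0.16 ± 0.24 (p = 0.502), with an 95% interval from -0.33 to 0.65. Dnajb1, the HSP40 that is induced with it, differed by -0.14 (p = 0.237) in Dox and by -0.24 (p = 0.0432) in Dox + ABT, both against Veh, and the latter difference was 0.05 (p = 0.587) within the first kind.

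Hsph1, an HSP110 that frees HSP70 of nucleotide, ranged from 4142 to 5502 in Veh (median 4643), from 2443 to 5309 in Dox (median 4209) and from 3970 to 5767 in Dox + ABT (median 4783). Dox rats 1, 2 and 10 lay below the Veh range, at 2443, 2625 and 4002, and the other 5 Dox rats lay within it. The difference from Veh was -0.26 ± 0.12 (p = 0.0413) with all rats and -0.05 (p = 0.592) without those 2. Its promoter, at chr12:10427118-10427417 (+) in GRCr8, holds a heat shock element, the site of HSF1, searched on both strands as GAA, TTC and GAA with 2 bases between neighbours. It lies on the reverse strand at -36 to -24 and is shown in capitals because Hsph1 was the cytosolic chaperone with the lowest p in Dox against Veh.
Hsph1: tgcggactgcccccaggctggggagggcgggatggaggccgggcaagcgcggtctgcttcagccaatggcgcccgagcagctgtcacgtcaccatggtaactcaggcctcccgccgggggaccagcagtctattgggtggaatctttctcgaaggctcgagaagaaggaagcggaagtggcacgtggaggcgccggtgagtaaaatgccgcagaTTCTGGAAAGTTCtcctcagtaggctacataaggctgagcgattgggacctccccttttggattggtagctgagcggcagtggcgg
The element was found in 3 of 10 cytosolic chaperone promoters (Hsph1, Hspa8 and Dnaja1) and in the overlapping promoters of Hspd1 and Hspe1, against 0.798% of all promoters.

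Hspa4, another HSP110, had medians of 2463, 2607 and 2953 for Veh, Dox and Dox + ABT. All 8 Dox + ABT rats were above the Veh median and all 8 Dox rats below the Dox + ABT median, with differences of 0.23 ± 0.09 (p = 0.0148) and -0.23 ± 0.10 (p = 0.02), which did not pass the threshold. Within the first kind the Hspa4 differences were 0.01 (p = 0.887) and -0.25 (p = 0.0183). Hspa8, the constitutive HSP70, ranged from 12.1 to 65.7 in Veh, from 26.3 to 63.7 in Dox and from 8.44 to 39.1 in Dox + ABT, with differences of -0.62 ± 0.30 (p = 0.0486) for Dox + ABT against Veh and 0.67 ± 0.32 (p = 0.0416) for Dox against Dox + ABT. Hspa8 was higher in the second kind by 0.79 (p = 0.0024), and within the first kind these differences were 0.02 (p = 0.968) and 0.48 (p = 0.205). RefSeq names 33 pseudogenes of Hspa8, 23 of Hsp90ab1, 20 of Hspd1 and 16 of Hsp90aa1. The levels of these 4 genes are therefore uncertain, since reads may be shared with near-identical copies. Hspa8, at 8.44 to 65.7 normalized counts, rests on few reads, and whether its row holds all of its reads was not tested. Hsp90aa1, the inducible cytosolic HSP90, ranged from 8545 to 15437 in Veh and from 8018 to 15354 in Dox, with a difference of -0.14 ± 0.13 (p = 0.274).

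The 3 mitochondrial chaperones were not called in any comparison (limma; 0, 1 and 0 at an unadjusted p under 0.05). Hspa9, the HSP70 of the matrix, had medians of 1267, 1301 and 1555 for Veh, Dox and Dox + ABT, with all 8 Dox + ABT rats above the Veh median and a difference of 0.22 ± 0.10 (p = 0.0358). The direction turned within the first kind (-0.07, p = 0.494), and Hspa9 differed between the kinds by -0.30 (p = 0.000307). Hspd1 and Hspe1, the HSP60 and HSP10 of the chaperonin, share a promoter region. Hspd1 had medians of 1319, 1093 and 1420 in Veh, Dox and Dox + ABT, and Hspe1 had 148, 153 and 179. Between Dox and Dox + ABT the differences were -0.19 ± 0.15 (p = 0.198) for Hspd1 and -0.19 ± 0.12 (p = 0.132) for Hspe1.

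Of the 8 sensors and transcription factors 1 was called, Ddit3. Ddit3 codes for CHOP, the factor that carries prolonged ER stress toward cell death and is usually raised by it. It ranged from 466 to 689 normalized counts in Veh (median 559), from 349 to 610 in Dox (median 465) and from 409 to 664 in Dox + ABT (median 500). The groups overlapped, with 7 of 8 Dox rats and 7 of 8 Dox + ABT rats below the Veh median. Ddit3 fell in Dox against Veh by 0.28 ± 0.10 (p = 0.00732, adjusted p = 0.312; exact permutation p = 0.00912), and the difference of Dox + ABT from Veh was -0.16 ± 0.10 (p = 0.122). The call was lost when any of Veh rats 1, 3, 4 and 11 or Dox rats 1, 5, 9, 13 and 14 was left out, with differences from -0.34 to -0.22.

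Atf4, the factor whose translation rises in the integrated stress response, had medians of 1609, 1778 and 1906 in Veh, Dox and Dox + ABT. All 8 Dox + ABT rats were above the Veh median, with a difference of 0.23 ± 0.09 (p = 0.0193), and Dox differed from Veh by 0.16 ± 0.09 (p = 0.105). Ern1, the IRE1 sensor, differed by 0.22 ± 0.12 (p = 0.0667) in Dox and 0.27 ± 0.12 (p = 0.0285) in Dox + ABT. Within the first kind the Dox + ABT differences from Veh were 0.08 (p = 0.424) for Atf4 and 0.03 (p = 0.772) for Ern1. These values are total messenger RNA and carry no measure of translation, splicing or cleavage. Atf6 (0.01 ± 0.13, p = 0.968), Hsf1 (-0.06 ± 0.12, p = 0.647) and Xbp1 (-0.20 ± 0.22, p = 0.373) did not pass the test in Dox against Veh. Xbp1 spanned 520 to 1809 in Dox, wider than the 676 to 1627 of Veh and the 672 to 1206 of Dox + ABT. Atf3, an early stress factor near the detection limit with a mean of 3.82 in Veh, reached 16.1 and 16.4 in Dox rats 1 and 2 and at most 12.2 elsewhere (0.78 ± 0.42, p = 0.0717).

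Of the 4 integrated stress response targets 3 were tested and none was called (limma; 1, 0 and 2 at an unadjusted p under 0.05). Ppp1r15a ranged from 224 to 284 in Veh (median 267), from 244 to 390 in Dox (median 275) and from 220 to 283 in Dox + ABT (median 267). The 2 highest values, 390 and 370, belonged to Dox rats 1 and 2, and the difference from Veh was 0.19 ± 0.09 (p = 0.0429) with them and 0.07 (p = 0.393) without. Asns, asparagine synthetase, had medians of 1352, 1327 and 1211 in Veh, Dox and Dox + ABT, with a difference of 0.19 ± 0.09 (p = 0.0421) between Dox and Dox + ABT. Chac1, a glutathione-degrading enzyme, differed from Veh by -0.10 ± 0.14 (p = 0.492) in Dox. Trib3, not tested, reached 11.8 in Veh, 12.3 in Dox (rat 1) and 3.81 in Dox + ABT.

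**Figure D5:**
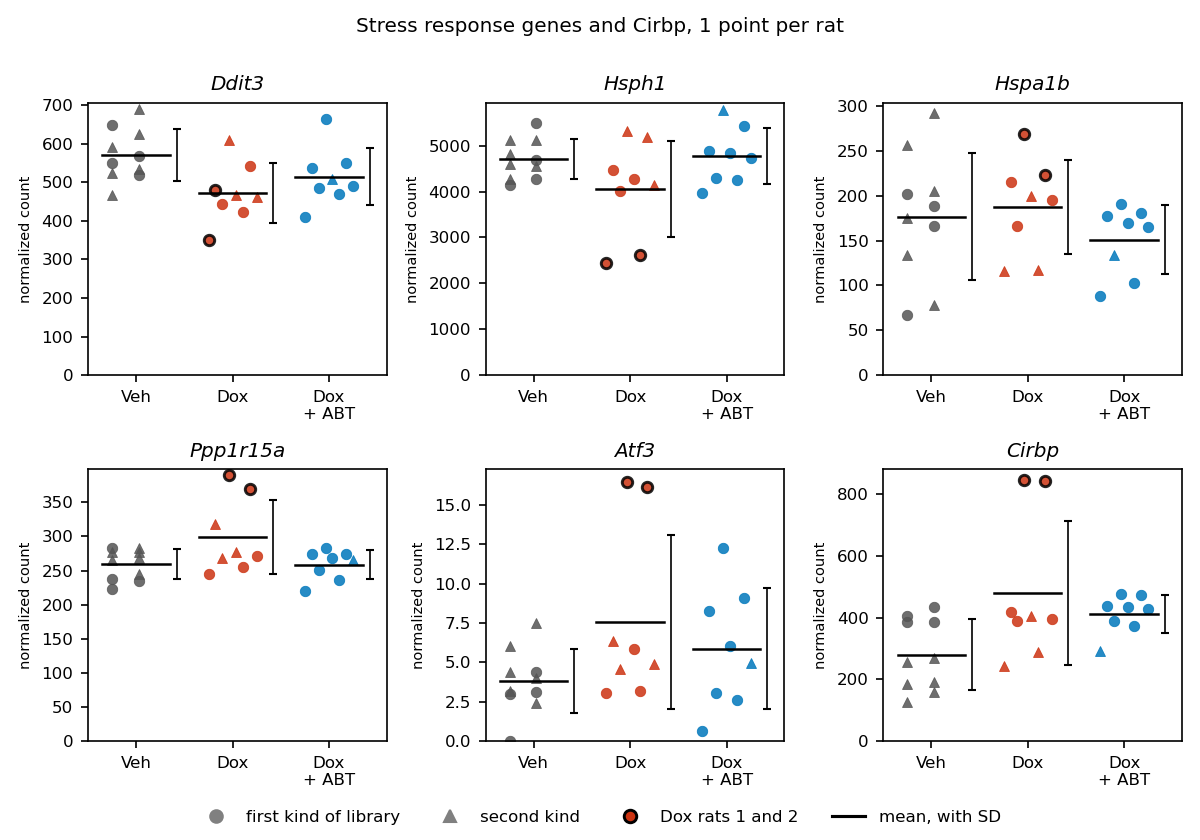
Normalized counts of 5 stress response genes and of Cirbp, 1 point per rat, with the mean (line) and SD (bar) of each group; circles are first-kind and triangles second-kind libraries, and Dox rats 1 and 2 are outlined. The outlined rats are the lowest for Hsph1 and the highest for Ppp1r15a, Atf3 and Cirbp, while Hspa1b overlaps across the 3 groups.

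Pairs of genes were correlated over rats within each kind of library after removal of the group means (14 relations, permutation tests with 100000 resamples, two-sided). In the first kind (n = 16) Hspa5 and Hsp90b1 had r = 0.79 and rho = 0.63, and r = 0.52 without the 2 rats farthest from the median of Hspa5. Hsph1 and Cirbp had r = -0.82 and rho = -0.64, and r = -0.60 without the 2 rats farthest from the median of Hsph1. Dox rats 1 and 2, singled out above as the lowest of all rats for Hspa5, Hsp90b1 and Hsph1 and the highest for Cirbp, are among these libraries, so these values are given as a description. Without both, a choice made after seeing the data, neither relation held in a permutation test (n = 14): Hspa5 and Hsp90b1 had r = 0.25 (p = 0.375, adjusted p = 0.733) and rho = 0.21 (p = 0.473, adjusted p = 0.602), and Hsph1 and Cirbp had r = -0.049 (p = 0.868, adjusted p = 0.925) and rho = 0.095 (p = 0.749, adjusted p = 0.836). In the second kind (n = 9) a permutation test gave r = 0.32 (p = 0.388) for Hspa5 with Hsp90b1 and r = -0.49 (p = 0.176) for Hsph1 with Cirbp. The other 10 relations had an adjusted p of r of at least 0.154 with all rats. Each point is 1 library, and libraries of a kind still differed in depth and composition.

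A wider list of 162 related genes, 147 of them tested, gave 4 called in Dox against Veh (2.72%), 10 in Dox + ABT against Veh (6.8%) and 6 in Dox against Dox + ABT (4.08%), beside the 2.87%, 7.84% and 4.03% of all genes. In Dox against Veh 3 fell and 1 rose. Slc7a11, the cystine transporter and a target of ATF4, ranged from 819 to 1132 normalized counts in Veh, from 486 to 1057 in Dox and from 688 to 1085 in Dox + ABT, and fell against Veh by 0.45 ± 0.11 (p = 0.000496, adjusted p = 0.14) and against Dox + ABT by 0.36 ± 0.12 (p = 0.00657). It was the only gene of the 4 that kept p under 0.01 in both the fit without Dox rats 1 and 2 (-0.29, p = 0.00817) and the fit of first-kind libraries (-0.78, p = 1.02e-05). Eif2ak4, the amino acid sensor GCN2, rose by 0.40 ± 0.12 (p = 0.00205), Bcl2l11, the pro-apoptotic BIM, fell by 0.50 ± 0.17 (p = 0.00654), and Fkbp4, a co-chaperone of HSP90, fell by 0.36 ± 0.13 (p = 0.00891). Of 26 single-rat omissions the Eif2ak4 call held in 26, that of Bcl2l11 in 21 and that of Fkbp4 in 6. Dox rats 1 and 2 were the highest of all rats for Eif2ak4 and the lowest for Fkbp4. Without Dox rats 1 and 2 the Fkbp4 difference was -0.14 (p = 0.152), while that of Bcl2l11 was -0.61 (p = 0.0021). In first-kind libraries 0 of the 21 further sensors and factors, Bcl2l11 among them, were called lower in Dox than in Veh. Their lowest difference there was -0.28.

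In Dox + ABT against Veh 7 of the wider genes fell and 3 rose. The HSP90 kinase adaptor Cdc37 fell by 0.39 ± 0.12 (p = 0.0022), the serine synthesis enzyme Phgdh by 0.38 ± 0.12 (p = 0.00272) and the translocon subunit Ssr2 by 0.41 ± 0.13 (p = 0.00377). Cars, a transfer RNA synthetase, fell by 0.22 ± 0.07 (p = 0.00496), Eif2b4, a subunit of the factor that PERK signalling inhibits, fell by 0.32 ± 0.11 (p = 0.00671), and Ahsa2 rose by 0.44 ± 0.14 (p = 0.00504). In libraries of the first kind alone these 6 differences ran from -0.19 to 0.22 and the smallest p was 0.0692. Of 26 single-rat omissions the calls of Cdc37, Phgdh and Ssr2 held in 26, Cars in 22, Ahsa2 in 20 and Eif2b4 in 16. In Dox against Dox + ABT the small heat shock gene Hspb2 (0.84 ± 0.24, p = 0.00151), Bag5 (0.33 ± 0.11, p = 0.00439) and Ddit4, an inhibitor of mTOR signalling (0.52 ± 0.17, p = 0.00441), were higher in Dox. Slc7a3 (-0.70 ± 0.21, p = 0.00302), an arginine transporter, Ahsa2 (-0.45 ± 0.15, p = 0.00612) and Slc7a11 were lower. These calls held in 26 of 26 single-rat omissions for Hspb2, 25 for Slc7a3, 20 for Bag5 and Slc7a11, 19 for Ddit4 and 18 for Ahsa2. Dox rats 1 and 2 were the highest of all rats for Hspb2 and Ddit4 and the lowest for Slc7a11. Without them the differences were 0.59 (p = 0.0177) for Hspb2, 0.29 (p = 0.0185) for Bag5, 0.33 (p = 0.0494) for Ddit4, -0.30 (p = 0.0503) for Ahsa2 and -0.20 (p = 0.0783) for Slc7a11, and Slc7a3 was the only 1 of the 147 genes called (-0.78, p = 0.00239).

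Markers of cell types were tested in the same comparisons, and their part in the values above was not tested. Of 40 tested markers of 10 cell types 9 were called in Dox against Veh, all of them lower, 3 of 5 for astrocytes and 3 of 5 for microglia among them, beside 2.87% of all genes and 1.85% lower, and none of 5 granule cell markers (limma; 0 at an unadjusted p under 0.05). The other 2 astrocyte markers were higher in Dox (up to 0.06), while all 5 microglia markers were lower. Without Dox rats 1 and 2 the count was 3 of 40, all 3 of them astrocyte markers, and no microglia marker was called (median difference -0.28 in place of -0.50). In Dox + ABT against Veh 3 of 40 markers were called (7.84% of all genes), and in Dox against Dox + ABT 4 of 40 (4.03% of all genes), all of them lower in the group named first. One of the former was the granule cell marker C1ql2 (-0.46 ± 0.12, p = 0.000697, adjusted p = 0.109), which gave -0.33 (p = 0.00812) with kind as a covariate and -0.18 (p = 0.129) in the first kind. The 5 granule cell markers were split in Dox + ABT against Veh, with 2 higher and 3 lower, a median of -0.07 and a range from -0.46 to 0.28. Summed astrocyte markers ranged from 36226 to 56558 normalized counts in Veh, from 29841 to 37275 in Dox and from 34806 to 50607 in Dox + ABT, and summed microglia markers had medians of 3757, 2657 and 2479. By kind the microglia sums had medians of 2479 (first) and 3779 (second). With kind as a covariate the median microglia difference from Veh was -0.11 in Dox + ABT, in place of -0.31, and -0.40 in Dox. Red cell genes, a sign of blood left in the tissue, had median sums of 9299, 15799 and 4403 for Veh, Dox and Dox + ABT, with the highest value in Dox rat 7. By kind the median sums were 3441 (first) and 12163 (second). In Dox + ABT against Veh none of the 4 red cell genes was called (limma). There 4 of 4 were lower with all rats (median -0.41) and 4 of 4 higher with kind as a covariate (median 0.62). In Dox against Veh none of the 4 red cell genes was called with all rats (median difference 1.04; 1 at an unadjusted p under 0.05), but all 4 were called higher with kind as a covariate (median 1.55; 12 of 40 markers called, 8 of them lower, beside 2.7% of all genes) and in the second kind alone (median 1.99; 3.57% of all genes). Cirbp was higher in Dox than in Veh by 0.76 ± 0.24 (p = 0.00362, adjusted p = 0.261), a call lost without Dox rat 1 or Dox rat 2 (0.44, p = 0.0554, without both). In Dox + ABT against Veh the Cirbp difference was 0.66 ± 0.24 (p = 0.00972, adjusted p = 0.125), but the call held in only 9 of 26 single-rat omissions (0.55 to 0.74). The Cirbp level also moved with the kind of library, with means of 403 ± 23.7 (SD, n = 4) in first-kind Veh and 198 ± 54.5 (SD, n = 6) in second-kind Veh. Within the first kind its Dox + ABT difference from Veh was 0.09 (p = 0.627), and with kind as a covariate 0.24 (p = 0.17). Rbm3 differed by 0.36 ± 0.15 (p = 0.026) in Dox against Veh and by 0.09 (p = 0.422) without Dox rats 1 and 2.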

How the data were processed

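Poly(A) RNA from the DG of 26 rats was sequenced on the Ion Proton platform. The authors aligned reads with STAR 2.5.3a to rn6 in Partek Flow and deposited normalized counts (Median Ratio scaling), a signal that is not a raw count. Between 74.7% and 80.6% of low values of genes with 1 row came out as whole reads (tolerance 0.02), so no count test was run here. The authors tested their counts with DESeq2. The 24012 rows were summed to 17910 gene IDs, and 15595 with a mean of at least 5 were tested on log2(value + 1) with limma 3.58.1 (R 4.3.3; variance trend, 1 fit of 3 groups, two-sided). A call is an unadjusted p under 0.01, the study's threshold, with Benjamini-Hochberg adjustment over all tested genes given as adjusted p. Depth was estimated from the smallest step of each library, and no library pair held identical values. Scripts were tested on simulated data. TMM factors (trimmed mean of M values) were computed directly, and exact and permutation tests used scipy 1.17.1 (Python 3.11.15).

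The genes and lists were chosen with earlier results of these data known, as were the kinds of library, set by a 2-class split of the first principal component. Genes named by rule were those called, the 2 with the smallest p per role in Dox against Veh and in Dox against Dox + ABT, 10 textbook genes, and at most 6 called genes of the wider list per comparison. Calr, Hsp90b1, Manf, Creld2, Pdia6, Sdf2l1, Cryab, Atf3, Eif2ak3, Hspa2 and the other genes named beyond that rule were chosen after their values were seen. Same-numbered rats of different groups had a median correlation of deviations of 0.00035, with 6 of 16 pairs above 0.1. The numbers are not shown to pair rats and were not taken as pairs.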

Additional observations from a re-analysis of the deposited data

Results flagged for a closer look

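In 16 of 168 groups of rats over 56 genes, 1 rat lay far from the rest of its group, where chance gives about 1 in 20. Of these, 8 were Dox + ABT rat 4, the only second-kind library of its group. That rat had the highest level of its group for Calr (9376 normalized counts, others 5981 to 6997), Hspa5 (6005, others 4796 to 5256), Hspb8 (352.0, others 155 to 220.3) and Fkbp4 (3111, others 2195 to 2369). It had the lowest level for Hyou1 (1979, others 2138 to 2249), Hsf1 (419.2, others 623 to 823), Eif2ak4 (360.3, others 455 to 549) and Rbm3 (767.8, others 1065 to 1399).

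The other 8 were spread over 7 rats. Hspa2 was low in Veh rat 12 (447.5, others 651 to 848) and in Dox + ABT rat 11 (425.5, others 583 to 759), and Creld2 was low in that same Dox + ABT rat (132.7, others 198 to 231). Hspa8 was low in Dox + ABT rat 12 (8.441, others 23.8 to 39.1), and Hspb1 was low in Dox rat 1 (26.56, others 47.3 to 78.9). Atf3 was listed at 0 in Veh rat 11 (others 2.46 to 7.51). Chac1 was high in Dox rat 14 (163.8, others 113 to 133), and Bag5 was high in Veh rat 3 (615.1, others 364 to 474).

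The difference of Dox from Veh depended on the kind of library in 5 of 40 genes by an interaction test. In the second minus the first kind it was -0.87 for Cryab, 0.42 for Dnajc3, 0.70 for Hsp90b1, 0.55 for Hspa5 and 0.69 for Hspd1. What separates the kinds was not tested.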

How the results depend on the processing

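Each comparison called 2 of the 40 genes. In Dox against Veh the count was 12 with weighted libraries (arrayWeights; 20.2% of all genes), 0 when the 2 groups were fitted alone (2.02%), 1 with transcript rows as deposited (2.51%), 1 with library kind as a covariate (2.7%), 6 in the first kind (4.76%) and 0 without Dox rats 1 and 2 (1.16%). In Dox + ABT against Veh it was 14 with weighted libraries (34%), 0 with the covariate (1.37%) and 0 in the first kind (1.1%). In Dox against Dox + ABT it was 1 for the 2 groups alone (4.51%), 5 with quantile normalization (4.08%), 8 with the covariate (4.76%), 12 in the first kind (8.21%) and 0 without Dox rats 1 and 2 (2.97%). Without these rats r fell to 0.25 for Hspa5 with Hsp90b1 and was -0.049 for Hsph1 with Cirbp in the first kind. The cause was not tested.

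Leaving out each rat in turn gave 0 to 6 calls in Dox against Veh (0 without Veh 11 or Dox 1, 6 without Dox 7), 0 to 5 in Dox + ABT against Veh (0 without Veh 1, 2 or 9, 4 without Veh 10, 5 without Veh 11) and 0 to 4 in Dox against Dox + ABT (0 without Dox 1, Dox 2, Dox + ABT 1 or Dox + ABT 3, 4 without Dox 7). Every other omission gave 1 to 3 calls. The share of all genes called over these omissions ran from 1.71% to 4.53%, from 4.46% to 13.7% and from 2.69% to 5.05%. The ER genes called in the first kind were 6 and 9, ran from 3 to 7 and from 5 to 10 when each library was left out, and were 2 and 2 without Dox rats 1 and 2. Hspd1 changed sign, to 0.29 (p = 0.00795), in Dox against Veh within the second kind.

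The replicate block, with the rat number as a term, gave 7 calls in Dox against Veh, 3 in Dox + ABT against Veh and 4 in Dox against Dox + ABT, beside 4.91%, 7.57% and 2.58% of all genes. Of 16 same-number pairs 6 had a correlation of deviations above 0.1 (-0.171 to 0.298), so the number is not shown to pair rats. Of 6941 values over 168 results of named genes and 42 settings, 6596 stayed on their side of the threshold, 236 fell below it, 108 passed it and 1, Hspd1, was called with the opposite sign. Of the 6596, 228 changed sign without being called under either setting, and 6368 kept their direction. The median difference of all genes in Dox against Veh was 0.00498 as deposited, -0.000211 with TMM and 0.00124 with quantile scaling. Atf3, Trib3 and Hspa8 rest on few reads.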
